A study of Mus musculus with 12 samples.

Results

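The 9 genes Adrb1, Adra1a, Adra1b, Grk5, Adcy5, Adcy6, Gnas, Pde3a and Pde4d encode adrenergic receptors of heart muscle and proteins that make, pass on, restrain or break down the cyclic AMP signal, and their transcripts were measured in the left ventricle of mice after aortic banding or sham surgery, with or without hispidulin. They were taken from a table of 18079 genes by matching NCBI Gene IDs to these symbols, and all 9 were found. RNA selected by oligo(dT) was sequenced from 12 male C57BL/6 mice, operated at 8 weeks of age and killed at 12 weeks, 4 weeks after surgery. Hispidulin is a plant flavone, and aortic banding (AB) narrows the descending aorta so that the left ventricle pumps against a raised pressure.

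There were 3 mice in each of 4 groups. The DMSO+Sham mice had the sham operation and the solvent dimethyl sulfoxide. The Hispidulin+Sham mice had the sham operation and hispidulin at 20 mg/kg/day. The DMSO+AB mice were banded and received the solvent, and the Hispidulin+AB mice were banded and received hispidulin at the same dose. The labels name no genetic modification, and every mouse had been operated on, so the comparisons contain no unoperated heart. Each library was 1 mouse, and the RNA came from ventricular tissue in which muscle cells, fibroblasts, vessel cells and immune cells are mixed.

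Noradrenaline and adrenaline act on the heart through beta receptors, which couple to the stimulatory G protein Gs, and through alpha-1 receptors, which couple to Gq and phospholipase C. Gs switches on adenylyl cyclase, cyclic AMP activates protein kinase A, and the kinase phosphorylates calcium channels and calcium-handling proteins so that the beat becomes faster and stronger. Receptor kinases uncouple the activated receptor, and phosphodiesterases break cyclic AMP down. A weakened response of this pathway to catecholamines is a known feature of the overloaded and failing heart.

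The values were FPKM, fragments scaled to transcript length and to the mapped total of a library, so levels can be compared between genes per unit of length. The FPKM of the 12 libraries summed to between 535235 and 567027, and the read depth is unknown. None of the 8 cardiomyocyte markers was at 0 throughout, and their summed FPKM ran from 37055 to 47138 over the libraries. Libraries of 1 group correlated at a Spearman rho of 0.968 to 0.986. DMSO+Sham 3 stood farthest from its group, with 534 of 11664 genes more than 1 log2 unit from the mean of its group mates, against 28 to 345 for the other libraries. The atrial muscle gene Myl7 reached 333, 67.5 and 42.3 FPKM in Hispidulin+Sham 3, DMSO+AB 2 and Hispidulin+AB 3 and at most 15.03 in the other libraries, so results were also computed without these 3, a choice made after the data were seen.

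By mean FPKM over the 12 libraries, Gnas stood far above the others at 835 ± 63.5 (SD, n = 12). Adcy6 followed at 46.3 ± 9.21, Adcy5 at 16.3 ± 1.95 and Grk5 at 11.5 ± 3.23. Pde3a at 8.78 ± 1.99, Adra1b at 8.19 ± 2.62, Adrb1 at 7.95 ± 0.822 and Adra1a at 6.14 ± 1.71 lay within each other's spread, and Pde4d was lowest at 4.37 ± 1.11. The order of the highest 3 was the same in each library except that Grk5 exceeded Adcy5 in DMSO+Sham 3 and DMSO+AB 2. Relative to its mean, Adrb1 varied least over the 12 libraries apart from Gnas, and Adra1b varied most.

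**Figure D1:**
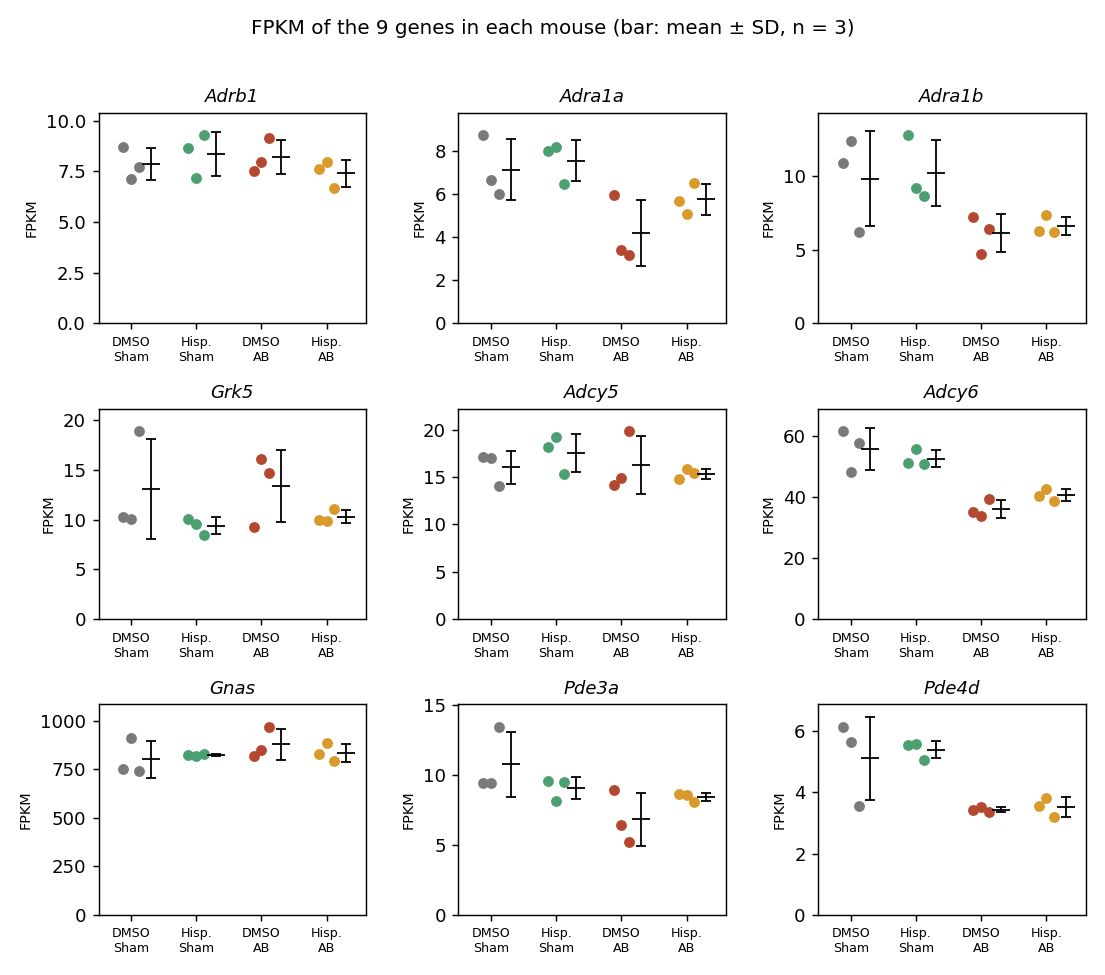
FPKM (y axis, linear, from 0) of each of the 9 genes in each mouse, with a point per mouse and a bar for the mean ± SD of 3 mice, by group on the x axis. In Adcy6 the 6 banded mice, at 33.96 to 42.61 FPKM, lie below the 6 sham mice, at 48.15 to 61.67, whereas the groups overlap in Adrb1, Adcy5, Grk5 and Gnas.

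The principal comparison was banding in solvent-treated mice, DMSO+AB against DMSO+Sham. It was made by limma on log2(FPKM + 1) over all 11664 genes that passed a filter on low values, with Benjamini-Hochberg adjustment, and all 9 members passed the filter. Adcy6 fell, and it was the only 1 of the 9 with an adjusted p under 0.05. Over all genes tested, 5.21% passed. In 4 of the 9, Adra1a, Adcy6, Pde3a and Pde4d, the 3 banded mice all lay below the 3 sham mice, and none lay above, where 17.9% of all genes had groups that did not overlap in either direction. The median difference of the 9 was -0.44 on the log2 scale against -0.035 over all genes. In bulk tissue, fewer cells of a type and less RNA per cell cannot be told apart.

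Of the receptors, Adrb1 encodes the beta-1 receptor, the main route of catecholamines to heart rate and force. Its FPKM was 8.68, 7.14 and 7.73 in the DMSO+Sham mice and 7.51, 7.94 and 9.12 in the DMSO+AB mice. The Hispidulin+Sham mice had 8.66, 7.16 and 9.27 and the Hispidulin+AB mice 7.60, 7.95 and 6.67. All 4 groups overlapped. The difference of DMSO+AB from DMSO+Sham was 0.05 on the log2(FPKM + 1) scale (SE 0.12, limma adjusted p = 0.841), with a 95% interval from -0.21 to 0.32.

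Adra1a encodes the alpha-1A receptor, which signals through Gq in heart muscle cells. It measured 8.70, 6.62 and 6.01 FPKM in DMSO+Sham and 5.92, 3.39 and 3.18 in DMSO+AB. The banded mice were all lower, but the highest banded and the lowest sham mouse lay only 0.09 FPKM apart. The log2 difference was -0.68 (SE 0.19, limma adjusted p = 0.0661). With each mouse left out in turn it ran from -0.91 (adjusted p = 0.00752, without DMSO+AB 1) to -0.54 (adjusted p = 0.227, without DMSO+Sham 1), and it passed in 1 of the 6 cases. In Hispidulin+Sham it measured 7.98, 8.16 and 6.45 and in Hispidulin+AB 5.66, 5.07 and 6.50, where 1 banded mouse lay just above the lowest sham mouse.

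Adra1b, the other alpha-1 receptor of cardiac muscle, was 10.89, 12.40 and 6.18 FPKM in DMSO+Sham and 7.24, 4.72 and 6.40 in DMSO+AB. The groups overlapped through DMSO+Sham 3, which lay below 2 of the banded mice. The log2 difference was -0.57 (SE 0.22, limma adjusted p = 0.173). Leaving out single mice gave -0.84 (adjusted p = 0.0301) without DMSO+Sham 3, the only 1 of 6 cases that passed, -0.39 (adjusted p = 0.316) without DMSO+Sham 2 and -0.42 (adjusted p = 0.399) without DMSO+AB 2. It was 12.76, 9.20 and 8.65 in Hispidulin+Sham and 6.26, 7.35 and 6.23 in Hispidulin+AB, where the groups did not overlap. The ratio of Adra1b to Adra1a averaged 1.38 ± 0.438 in DMSO+Sham and 1.54 ± 0.416 in DMSO+AB (SD, n = 3 each), with an exact two-sided permutation p = 0.6.

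Of the 9 alpha and beta receptor genes, 5 passed the filter and none of these passed the test in DMSO+AB against DMSO+Sham. Adra1d had a mean of 1.46 FPKM over the 12 libraries, and Adra2b, at 0.46 FPKM, was under the filter. Adrb3 never exceeded 0.06 FPKM.

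Grk5 encodes a kinase that phosphorylates activated receptors and so uncouples them from their G proteins. It measured 10.32, 10.08 and 18.91 FPKM in DMSO+Sham and 9.27, 16.14 and 14.68 in DMSO+AB. The hispidulin mice had 10.10, 9.61 and 8.46 after sham surgery and 9.99, 9.87 and 11.08 after banding. The 3 highest values were DMSO+Sham 3, DMSO+AB 2 and DMSO+AB 3. The log2 difference of DMSO+AB from DMSO+Sham was 0.05 (SE 0.23, limma adjusted p = 0.928). Its value followed single mice, from -0.10 without DMSO+Sham 2 to 0.32 without DMSO+Sham 3, and it passed in none of the alternatives. In the GENCODE annotation 3 genes on the opposite strand overlap Grk5, and whether the counting used strand is not stated in the sources used here. None of the 7 receptor kinase and arrestin genes tested passed. Grk2 at a mean of 26.3 FPKM, Grk6 at 10.8 and Grk4 at 9.11 were the most abundant besides Grk5.

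Gnas encodes the alpha subunit of Gs. It was 752, 912 and 742 FPKM in the DMSO+Sham mice and 816, 850 and 968 in the DMSO+AB mice. With hispidulin it was 824, 820 and 827 after sham surgery and 828, 885 and 794 after banding. All groups overlapped, and the log2 difference of DMSO+AB from DMSO+Sham was 0.13 (SE 0.10, limma adjusted p = 0.492). The locus makes several transcripts from separate promoters and has the antisense gene Nespas on its opposite strand. The values could not be divided among them. Of the 16 G protein subunit genes tested, Gnao1 rose and the rest did not pass. Gnao1 encodes the alpha subunit of the G protein Go. Its FPKM was 8.55, 8.37 and 9.11 in DMSO+Sham and 11.97, 21.53 and 26.52 in DMSO+AB, a log2 difference of 1.05 (SE 0.25, limma adjusted p = 0.0368). Gng5, Gnai2 and Gnb2 were the most abundant after Gnas, at means of 181, 160 and 104 FPKM.

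Adcy6 and Adcy5 encode the main adenylyl cyclases of cardiac muscle cells. Adcy6 fell, and Adcy5 did not pass the test. Adcy6 was 61.67, 48.15 and 57.64 FPKM in DMSO+Sham and 35.16, 33.96 and 39.47 in DMSO+AB. The highest banded mouse lay 8.68 FPKM below the lowest sham mouse. The means were 55.8 ± 6.94 and 36.2 ± 2.90 (SD, n = 3 each), a log2 difference of -0.61 (SE 0.11, limma adjusted p = 0.0118) or 0.657 times the sham level. It stood 100th of the 11664 genes by p. With fewer libraries the call was lost in 3 cases, at adjusted p = 0.0549 without DMSO+Sham 1, 0.0563 without DMSO+AB 2 and 0.139 without the 3 libraries high in Myl7, while the difference stayed between -0.53 and -0.56. The call was also lost with the number series of the library names as a covariate (-0.53, adjusted p = 0.0574) and when only the 6 libraries were fitted (-0.61, adjusted p = 0.152). Within the lower number series, with 1 mouse a group, the difference was -0.28, and within the higher, with 2 banded mice and 1 sham mouse, it was -0.72. The same values were -0.87 and -0.35 for Adra1a, -0.75 and -0.76 for Pde3a and -0.61 and -0.03 for Pde4d. Of the 8 cardiomyocyte markers, 2 fell, Pln and Ryr2. None rose. The difference was positive in 2, Actn2 (0.33, adjusted p = 0.0555), with all 3 banded mice above the sham mice, and Myl3 (0.15, adjusted p = 0.402). It was negative in 6, and in 3 of these, Pln, Ryr2 and Tnni3, all 3 banded mice lay below the sham mice. The marker sums overlapped at 37055 to 47138 FPKM in DMSO+Sham and 37443 to 41757 in DMSO+AB. The part of muscle cell content in the Adcy6 result was not tested.

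Adcy5 was 17.06, 17.00 and 14.00 FPKM in DMSO+Sham and 14.12, 14.85 and 19.84 in DMSO+AB. The groups overlapped and their log2 difference was 0.01 (SE 0.14, limma adjusted p = 0.973, 95% interval from -0.30 to 0.31). The ratio of Adcy6 to Adcy5 within each mouse was 3.61, 2.83 and 4.12 in DMSO+Sham and 2.49, 2.29 and 1.99 in DMSO+AB. The groups did not overlap, with an exact two-sided permutation p = 0.1, the smallest possible. In Hispidulin+Sham it was 2.83, 2.92 and 3.32, and in Hispidulin+AB 2.75, 2.69 and 2.52. All Hispidulin+AB ratios lay above the DMSO+AB ratios and below the Hispidulin+Sham ratios (exact two-sided permutation p = 0.1 for each).

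Of the 6 cyclase genes tested, 2 fell and 1 rose in DMSO+AB against DMSO+Sham. The second to fall was Adcy9, a cyclase found in many tissues, at 7.08, 7.70 and 9.92 FPKM in DMSO+Sham and 5.04, 4.53 and 5.88 in DMSO+AB. Its log2 difference was -0.58 (SE 0.13, limma adjusted p = 0.0263). Adcy7, a cyclase best known from blood and immune cells, rose from 1.88, 2.27 and 2.56 to 3.63, 8.28 and 6.08 FPKM, a log2 difference of 1.06 (SE 0.22, limma adjusted p = 0.0204). Adcy4 had a mean of 13.8 FPKM and did not pass. Of the 8 fibroblast markers 3 passed upward, and the 8 summed to 346 to 448 FPKM in DMSO+Sham and 406 to 987 in DMSO+AB. The 6 macrophage markers did not pass, and their sums overlapped at 183 to 343 and 224 to 350. The part of these cells in the results was not tested.

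**Figure D2:**
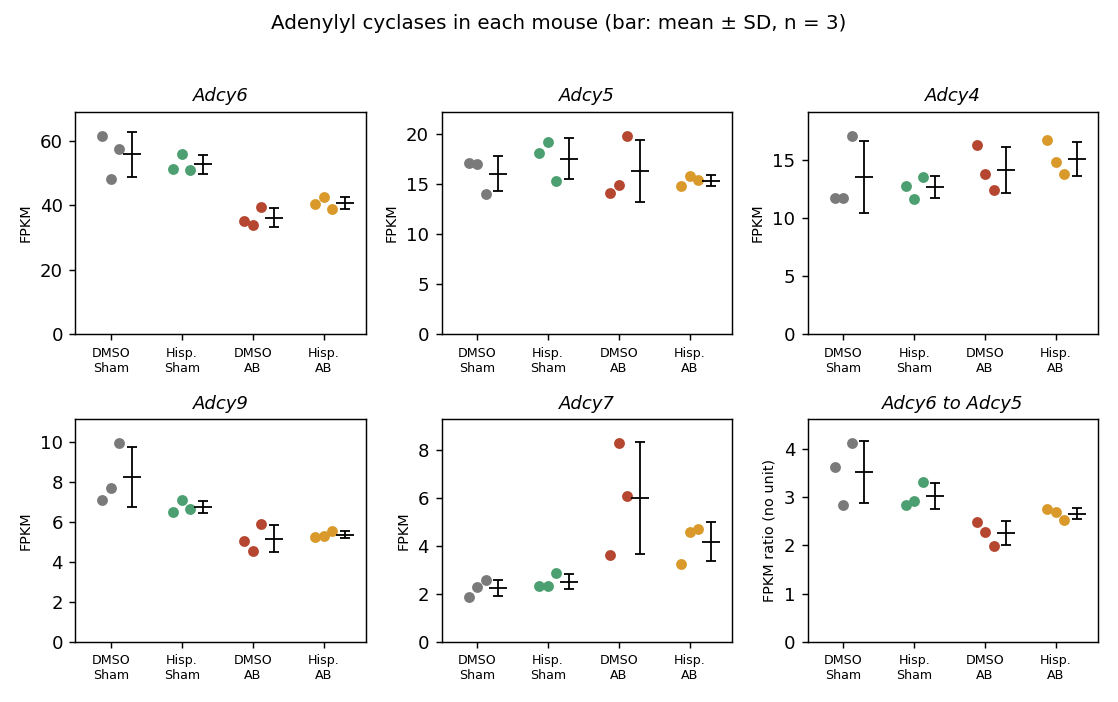
FPKM (y axis, linear, from 0) of the 5 most abundant adenylyl cyclase genes in each mouse by group, and, in the last panel, the FPKM ratio of Adcy6 to Adcy5, with a point per mouse and a bar for the mean ± SD of 3 mice. Adcy6 and Adcy9 are lower and Adcy7 higher in all 6 banded mice than in all 6 sham mice, and Adcy5 and Adcy4 overlap.

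Pde3a encodes a phosphodiesterase that breaks down cyclic AMP and is inhibited by cyclic GMP and by the drug milrinone. It was 9.44, 9.44 and 13.45 FPKM in DMSO+Sham and 8.90, 6.40 and 5.20 in DMSO+AB. The banded mice were lower in each case, by a log2 difference of -0.60 (SE 0.17, limma adjusted p = 0.0679). With 1 mouse left out it lay between -0.78 (adjusted p = 0.0136, without DMSO+AB 1) and -0.44 (adjusted p = 0.164 without DMSO+Sham 3 and 0.192 without DMSO+AB 3), passing in 1 of 6 cases. The Hispidulin+Sham mice had 9.57, 8.14 and 9.54 and the Hispidulin+AB mice 8.68, 8.55 and 8.07, which overlapped. Pde4d encodes a cyclic AMP phosphodiesterase that is held near beta receptors and calcium release channels. It was 6.14, 5.64 and 3.57 FPKM in DMSO+Sham and 3.43, 3.53 and 3.35 in DMSO+AB. The sham mouse DMSO+Sham 3 lay only 0.04 FPKM above the highest banded mouse, and the log2 difference was -0.44 (SE 0.15, limma adjusted p = 0.121). Without that mouse it was -0.63 (adjusted p = 0.0142), the only 1 of 6 such cases that passed, and without DMSO+Sham 1 it was -0.31 (adjusted p = 0.350). The Hispidulin+Sham mice had 5.54, 5.58 and 5.07 and the Hispidulin+AB mice 3.57, 3.82 and 3.19, which did not overlap. With limma's library weights, under which more variable libraries count less, Pde4d (-0.60, adjusted p = 0.0140), Adra1a (-0.88, adjusted p = 0.0104) and Adra1b (-0.79, adjusted p = 0.0247) passed in DMSO+AB against DMSO+Sham, and Pde3a (-0.46, adjusted p = 0.0573) did not.

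Of the 15 phosphodiesterase genes tested, only Pde8a passed, and it rose. It breaks down cyclic AMP with high affinity, and it measured 7.79, 6.53 and 6.60 FPKM in DMSO+Sham and 9.03, 9.77 and 12.75 in DMSO+AB, a log2 difference of 0.52 (SE 0.13, limma adjusted p = 0.0457). Pde2a, Pde7a and Pde4a were the most abundant of the family, at means of 25.6, 15.6 and 14.6 FPKM over the 12 libraries.

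Banding was also compared within the hispidulin mice, Hispidulin+AB against Hispidulin+Sham. No gene passed (0%), with 847 genes at an unadjusted p under 0.05 and a smallest adjusted p of 0.0857, so no member could be called. The replicate numbers of the titles as a block over all 12 libraries gave 17 genes and 0 members. Fitting these 6 libraries alone gave 49 genes and 0 members. With library weights 209 genes passed, among them Adcy6 (adjusted p = 0.0330) and Pde4d (adjusted p = 0.0313). The groups did not overlap in 3 of the 9 members, all lower, against 20.9% of all genes. Adcy6 was 51.31, 55.95 and 50.82 FPKM in Hispidulin+Sham and 40.49, 42.61 and 38.85 in Hispidulin+AB, with a log2 difference of -0.37 (SE 0.11, limma adjusted p = 0.482). The log2 differences of the other 2 were -0.50 (SE 0.15) for Pde4d and -0.54 (SE 0.22) for Adra1b. For Adra1a it was -0.34, for Adcy5 -0.18, for Adrb1 -0.15, for Pde3a -0.09, for Gnas 0.02 and for Grk5 0.12, and these groups overlapped.

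**Figure D3:**
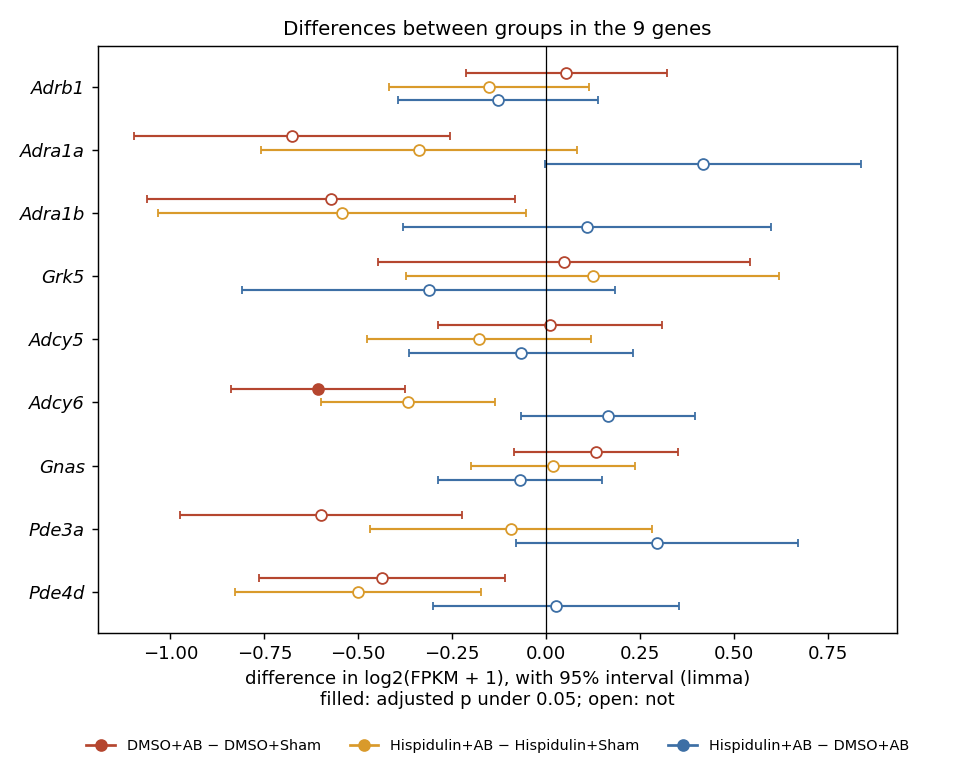
Differences in log2(FPKM + 1) (x axis) for the 9 genes (y axis) in 3 comparisons, with points for the limma estimates and bars for their 95% intervals. Filled points have an adjusted p under 0.05, which is Adcy6 in DMSO+AB − DMSO+Sham alone.

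Averaging the banding difference over both treatments, a comparison chosen after the data were seen, put 6 banded against 6 sham mice. Here 7.39% of all genes passed, and 3 members did, all lower. Adcy6 had a log2 difference of -0.49 (SE 0.08, limma adjusted p = 0.00462), Pde4d of -0.47 (SE 0.11, adjusted p = 0.0223) and Adra1a of -0.51 (SE 0.14, adjusted p = 0.0434). Adra1b, at -0.56 (SE 0.16, adjusted p = 0.0547), and Pde3a, at -0.35 (SE 0.12, adjusted p = 0.109), did not pass. Leaving out 1 library at a time, Adcy6 passed in 12 of 12 cases, whereas the call of Pde4d was lost in 5 (without DMSO+Sham 1, Hispidulin+Sham 1 or 2, or Hispidulin+AB 1 or 3) and that of Adra1a in 9 of 12 (all but DMSO+Sham 2 or 3 and DMSO+AB 1). Adra1a also lost its call with no filter (adjusted p = 0.0840), with median-of-ratios scaling (0.0644), with quantile normalization (0.0646) and with the number series as a covariate (0.129), and Pde4d with the number series (0.0709). Adra1b passed in 4 of its 22 alternatives, without DMSO+Sham 3 (-0.69, adjusted p = 0.00696), without DMSO+AB 1 (-0.61, adjusted p = 0.0432), with library weights (-0.68, adjusted p = 0.00312) and with a minimum of 5 FPKM (-0.56, adjusted p = 0.0480). Pde3a passed in 2 of 22, without DMSO+AB 1 (-0.44, adjusted p = 0.0256) and with the number series (-0.45, adjusted p = 0.0490). Of the 8 cardiomyocyte markers, Actn2 rose here (0.29, adjusted p = 0.0194) and 2 fell, and the difference was negative in 5. Adcy6 was the only member whose 6 banded mice all lay below the 6 sham mice, where 4.96% of all genes did not overlap. Without the 3 libraries high in Myl7 none of the 3 passed (Adcy6 -0.46, adjusted p = 0.0872; Pde4d -0.47, adjusted p = 0.181; Adra1a -0.55, adjusted p = 0.184).

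Whether hispidulin altered the pathway in banded hearts was asked by Hispidulin+AB against DMSO+AB. No gene passed the test (0%), with 362 at an unadjusted p under 0.05, and no member had groups that did not overlap, against 7.88% of all genes. The largest member differences were 0.42 for Adra1a (SE 0.19, 95% interval from -0.0024 to 0.84) and -0.31 for Grk5 (SE 0.23, interval from -0.81 to 0.18) on the log2 scale. Pde3a differed by 0.29 (SE 0.17), Adcy6 by 0.17 (SE 0.11, interval from -0.07 to 0.40), Adrb1 by -0.13 and Adra1b by 0.11. Gnas differed by -0.07, Adcy5 by -0.07 and Pde4d by 0.03. The limma adjusted p-values were all 0.996 or higher. Within the lower number series, with 1 mouse a group, Adra1a differed by 0.84 and Adcy6 by -0.02, and within the higher, with 2 mice a group, by 0.21 and 0.26. Both this comparison and the first share the DMSO+AB mice, so the signs of their differences are not independent.

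In Hispidulin+Sham against DMSO+Sham again no gene passed (0%), with 287 at an unadjusted p under 0.05, and the member differences ran from -0.39 for Grk5 and -0.21 for Pde3a to 0.12 for Adcy5. The interaction of hispidulin and banding, which asks whether banding acted differently under hispidulin, passed for no gene (0%), with 289 at an unadjusted p under 0.05. The largest member values were 0.50 for Pde3a (SE 0.24, 95% interval from -0.03 to 1.04), 0.34 for Adra1a (SE 0.27) and 0.24 for Adcy6 (SE 0.15).

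Promoter sequence, from 250 bases before to 50 bases after a start site, was on hand for 6 of the 9 genes in RefSeq on the build GRCm38.p6, in 10 entries, and Adra1a, Adcy6 and Pde3a had no entry. The 10 entries were searched on both strands for the cyclic AMP response element TGACGTCA, its shorter core TGACG, which lies within it, and the M-CAT element CATTCC. None held TGACGTCA, found in 1.79% of all 32851 promoters of the table, and none held CATTCC, found in 14.66%. The core stood in 4 of the 10, 1 of Adrb1 and 3 of Gnas, of which 2 overlap, and in 20.81% of all promoters. A gene whose groups overlapped throughout and one whose banded mice were lower in both comparisons are shown, with TGACG in capitals, as a description of the letters only.
Adrb1, chr19:56721867-56722166, + strand: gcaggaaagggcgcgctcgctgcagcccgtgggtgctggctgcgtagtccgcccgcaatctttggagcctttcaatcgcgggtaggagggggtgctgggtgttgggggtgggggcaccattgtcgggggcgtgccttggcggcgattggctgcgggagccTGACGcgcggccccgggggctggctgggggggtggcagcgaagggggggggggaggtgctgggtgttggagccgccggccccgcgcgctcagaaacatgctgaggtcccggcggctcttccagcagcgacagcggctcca
Pde4d, chr13:108653927-108654226, + strand: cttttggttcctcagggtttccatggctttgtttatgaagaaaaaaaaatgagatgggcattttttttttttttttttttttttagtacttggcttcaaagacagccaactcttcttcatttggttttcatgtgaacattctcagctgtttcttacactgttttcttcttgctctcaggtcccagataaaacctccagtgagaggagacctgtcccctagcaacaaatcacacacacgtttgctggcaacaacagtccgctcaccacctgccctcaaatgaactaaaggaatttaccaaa
The core in Adrb1 begins 90 bases before the start site. The GC content was 72.3% in the Adrb1 and 39.7% in the Pde4d window.

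Upstream and downstream of the members, 184 other genes of the pathway were listed, 183 were in the table and 147 passed the filter. In DMSO+AB against DMSO+Sham 5 rose and 5 fell, a count near the 5.21% of all genes that passed, and the median log2 difference was 0.0044 against -0.035 over all genes. Besides Gnao1, Adcy7, Adcy9 and Pde8a these were targets of protein kinase A, other receptors and a catecholamine enzyme. Hspb6, a small heat shock protein phosphorylated by protein kinase A, rose from 750, 997 and 629 to 1604, 1564 and 2357 FPKM (log2 difference 1.22, SE 0.19, limma adjusted p = 0.00858). Pln, phospholamban, the brake on the calcium pump, fell from 2472, 3115 and 2673 to 2119, 1959 and 1367 FPKM (log2 difference -0.62, SE 0.15, adjusted p = 0.0396). Ryr2, the calcium release channel of the sarcoplasmic reticulum, fell from 99.3, 81.0 and 94.4 to 74.7, 58.8 and 50.0 FPKM (log2 difference -0.59, SE 0.14, adjusted p = 0.0364).

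Chrm2, the muscarinic receptor through which the vagus nerve opposes beta receptors, was 16.94, 23.03 and 18.97 FPKM in DMSO+Sham and 14.50, 11.49 and 10.08 in DMSO+AB, and it fell by 0.67 on the log2 scale (SE 0.17, limma adjusted p = 0.0411). Ptgir, the prostacyclin receptor, which couples to Gs, rose by 0.57 on the log2 scale (SE 0.14, adjusted p = 0.0385) at levels of 1.16 to 2.75 FPKM. Maob encodes monoamine oxidase B, which breaks down amines. It had the largest fall of the 147, from 29.79, 26.18 and 35.78 to 15.09, 11.58 and 9.10 FPKM, a log2 difference of -1.30 (SE 0.17, limma adjusted p = 0.00412). The Hispidulin+AB mice had 22.11, 19.42 and 16.78 FPKM of Maob, all above the DMSO+AB mice, a log2 difference of 0.68 (SE 0.17) with an adjusted p = 0.996. Of these 10 calls, Hspb6 and Maob passed with each of the 6 libraries left out in turn. Adcy7 lost its call without DMSO+Sham 1, DMSO+AB 2 or DMSO+AB 3, Adcy9 without DMSO+Sham 1, DMSO+Sham 3 or DMSO+AB 2, and Ryr2 without DMSO+Sham 1, DMSO+Sham 3, DMSO+AB 2 or DMSO+AB 3. Gnao1, Pde8a, Pln, Chrm2 and Ptgir kept their calls in 1 of these 6 cases, when DMSO+AB 1 was left out. None of the 10 passed without the 3 libraries high in Myl7, with adjusted p-values from 0.0542 for Maob to 0.228 for Chrm2, or when the 6 libraries were fitted alone, and no difference turned sign. With the number series as a covariate Hspb6 and Maob passed and the other 8 did not. Gnao1, Pde8a, Pln, Ryr2, Chrm2 and Ptgir lost their calls with no filter on low values, Pde8a, Pln and Chrm2 with library weights, and Pln with quantile normalization. Averaged over both treatments, 7 of the 147 rose and 6 fell, near the 7.39% of all genes that passed.

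Among pathway genes outside the member set whose groups did not overlap but whose adjusted p missed 0.05, Crhr2 (-0.84, adjusted p = 0.0545), Pde4c (-0.64, 0.0810), Aplnr (1.25, 0.0653) and Nr4a3 (1.02, 0.165) differed most in DMSO+AB against DMSO+Sham. In Hispidulin+AB against DMSO+AB, 16 of the 147 pathway genes tested did not overlap, where 7.88% of all genes did not. No adjusted p among them was under 0.05, and it was 0.996 for each gene named next. The largest differences were, besides Maob, Creb1 (0.42), Rrad (0.40), Pth1r (0.37) and Crhr2 (0.35) upward and Ptger4 (-0.29), Rgs3 (-0.26), Mybpc3 (-0.17), Ppp2ca (-0.16) and Prkca (-0.15) downward.

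**Figure D4:**
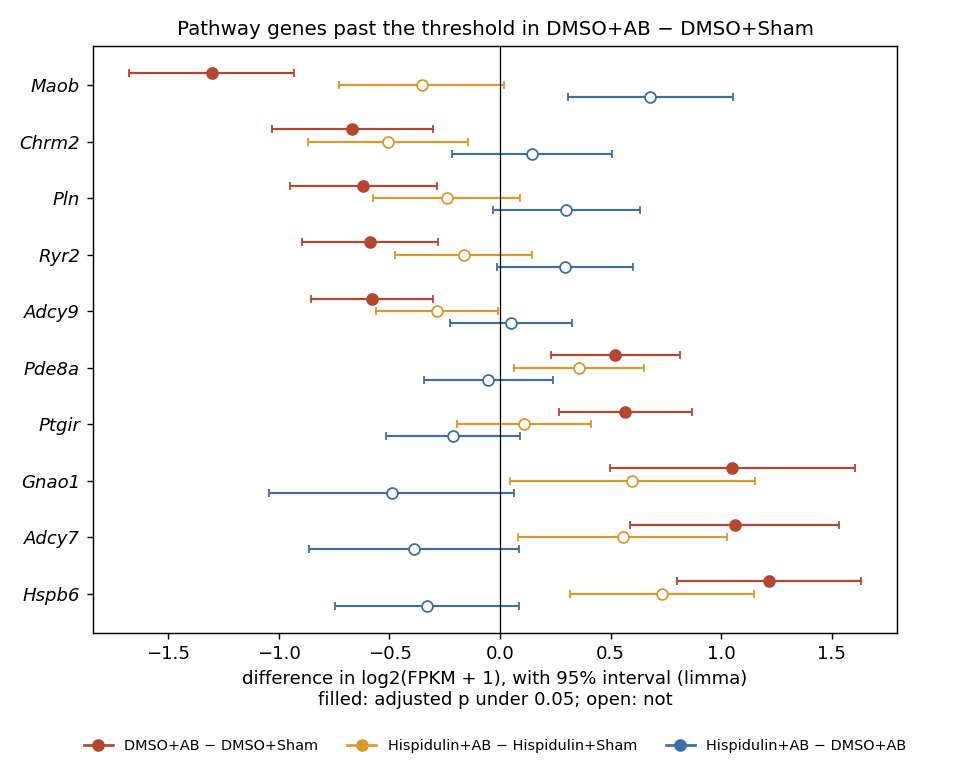
Differences in log2(FPKM + 1) (x axis) for the 10 pathway genes outside the member set (y axis) that passed in DMSO+AB − DMSO+Sham, in 3 comparisons, with limma estimates and 95% intervals. Filled points have an adjusted p under 0.05 and occur in the first comparison alone; Maob, at -1.30, and Hspb6, at 1.22, lie at the ends.

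The genes whose log2 levels followed each member most closely over the 12 libraries were taken by Pearson's r, as a description, since libraries of a group share their treatment. For Adcy6 they were Pcnt (0.975), Herpud1 (0.969) and Qsox2 (0.962). For Adra1a they were Hadha (0.953), Atp5a1 (0.950) and Fyco1 (0.949), for Adra1b Hjv (0.960), Slc25a12 (0.958) and Myorg (0.956), and for Adrb1 Vps72 (0.902), Pard6g (0.854) and Cd300lg (0.851). For Pde4d they were Rps6ka5 (0.958), Alox5 (0.950) and Zfp251 (0.948), and for Pde3a Aldh6a1 (0.944), Ctnnal1 (0.943) and Acadsb (0.940). For Grk5 they included Nmral1 (0.925) and Krt80 (0.923), for Adcy5 Ppp6r2 (0.935), Fem1a (0.911) and Rbm38 (0.904), and for Gnas Snap47 (0.942), E130309D02Rik (0.923) and Maip1 (0.923).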

How the data were processed

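The authors deposited FPKM per gene for 12 libraries, 3 in each of 4 groups, from single-end 50-base reads on the BGISEQ-500. The submitters' processing notes name HISAT2 2.0.4, Bowtie2 2.2.5, RSEM 1.2.12 and DESeq2 1.4.5, and the genome build is not given in the sources used here. NCBI Gene IDs were paired with symbols for 17947 of 18079 genes (99.3%). Values are rounded to 0.01. Of the ratios of low values of a gene between libraries, 24.8% lay within 0.1 of a whole number, against 20% for evenly spread values. Rounding, and mapped totals that may differ between libraries, blur such ratios, so they cannot show whether whole reads left steps. The depth is unknown, and precision rests on the 3 mice a group. Each library was a separate mouse.

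Genes with at least 1 FPKM in at least 3 libraries (11664) were tested on log2(FPKM + 1), which understates changes of low genes, by limma 3.58.1 in R 4.3.3, with a mean per group over all 12 libraries, a variance trend, and Benjamini-Hochberg adjustment over all genes at 0.05. Ratios of FPKM within a mouse were compared by exact permutation, where 3 against 3 mice cannot go below p = 0.1. The members and gene lists were chosen with earlier results of these data known. Named were all members, pathway genes past the threshold in any planned comparison, up to 5 higher and 5 lower pathway genes without overlap in DMSO+AB against DMSO+Sham and in Hispidulin+AB against DMSO+AB, the 3 most abundant other genes of a family, and the 3 genes most like each member. Results that need certain genes are not reported here. Akap2 and Bmp10, of the lists, had no row under that symbol. Alternatives changed the pseudocount, filter, scaling, variance model, covariates and libraries.

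Deviations of mice with the same replicate number in their titles correlated at 0.147 to 0.228 in Hispidulin+AB against Hispidulin+Sham and at 0.126 to 0.33 in Hispidulin+Sham against DMSO+Sham, so there the numbers were taken as pairs on the data alone, as the labels give no shared origin.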

Additional observations from a re-analysis of the deposited data

How the results depend on the processing

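Of 686 member values recomputed under alternatives, 667 kept the sign reported, and no call turned direction. The 19 that turned were small. In DMSO+AB against DMSO+Sham they were Adrb1 with library weights (-0.060), Adcy5 with library weights (-0.11), Grk5 with the number series as covariate (-0.085) and without the 3 libraries high in Myl7 (-0.10), and, leaving out 1 mouse at a time, Adrb1 (-0.017 to 0.12), Grk5 (-0.10 to 0.32) and Adcy5 (-0.13 to 0.10). In Hispidulin+AB against DMSO+AB they were Adra1b without those 3 libraries (-0.0042) and, leaving out 1 mouse, Adra1b (-0.040 to 0.22), Adcy5 (-0.16 to 0.076), Gnas (-0.12 to 0.0032) and Pde4d (-0.020 to 0.081). In Hispidulin+AB against Hispidulin+Sham Gnas turned with quantile normalization (-0.046) and leaving out 1 mouse (-0.023 to 0.055).

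In DMSO+AB against DMSO+Sham the 608 genes became 358 with no filter, 1423 with library weights, 142 with the number series as covariate, 11 when the 6 libraries were fitted alone, 20 without the 3 libraries high in Myl7, and 91 to 1053 leaving out 1 mouse. The member count of 1 became 4 with library weights, 0 with the number series, 0 with the 6 libraries alone, 0 without the 3 libraries, and 0 to 3 leaving out 1 mouse. With the replicate number as a block over all 12 libraries it was 2 (Adra1a added, adjusted p = 0.0472). Deviations of mice with the same number correlated as low as -0.198 here and -0.183 in Hispidulin+AB against DMSO+AB. The count of 0 in Hispidulin+AB against DMSO+AB was 2 with no filter and 0 to 20 leaving out 1 mouse. In Hispidulin+AB against Hispidulin+Sham the 0 genes became 2 with no filter, 2 with median-of-ratios scaling, 3 with quantile normalization, 209 with library weights (2 members, Adcy6 and Pde4d), 17 with the replicate block, 49 with those libraries alone, and 0 to 3 leaving out 1 mouse. The interaction gave 0 to 3 genes leaving out 1 mouse. Over both treatments the 862 genes became 2535 with library weights, 547 with the number series, 74 without the 3 libraries and 376 to 1220 leaving out 1 mouse, and the 3 members became 4 with library weights or a minimum of 5 FPKM (Adra1b added), 2 with no filter, with either other scaling or with the number series, 0 without the 3 libraries and 1 to 5 leaving out 1 mouse. The block changed no other call of a member, and of the pathway genes named it ended that of Ptgir. The cause of these changes was not tested.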
